A study of Gallus gallus with 8 samples.

Results

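The genes described here encode the chicken class II histocompatibility (MHC) β chains BLB1 and BLB2, the DM chains DMA, DMB1 and DMB2, the invariant chain CD74, the peptide transporter subunits TAP1 and TAP2, and β2-microglobulin (B2M). They were chosen by symbol, 9 genes against a deposited table of 15873 gene rows. The choice was made with measured values in view: DMB2 was already known to be lower in the highland breeds, and BLB1 to vary within breeds. Of the 9 genes, 6 had a row under their own symbol. CD74 had no row under its symbol, but a row with the symbol II (ENSGALG00000004594) carried a name that the RefSeq gene table of assembly GRCg7b lists as a synonym of CD74 and of no other gene, and it is called CD74 below. BLB2 and DMB1 had no row and were not analysed here. All 7 genes with a row passed the filter on low values, which required an RPKM (read count scaled by gene length and by the mapped reads of the library) of at least 1 in at least 2 libraries and kept 11556 genes.

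The RNA came from heart tissue of chicken embryos on day 16 of incubation, without any treatment. There were 4 breeds with 2 libraries each. Linzhi Tibetan and Lhasa White are taken as the highland breeds, after the places on the Tibetan plateau in their names, and Chahua and White Leghorn as the lowland breeds. The series set out to find genes that differ in highland chickens. The labels do not state that libraries of the same breed are from different embryos, and the spread between them may be partly technical.

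MHC molecules show peptides to T cells. Class II molecules are assembled with the invariant chain, which blocks their groove and guides them to endosomes, where DM helps to exchange its remnant for peptides of engulfed proteins. Class I molecules pair with β2-microglobulin and are loaded in the endoplasmic reticulum with cytosolic peptides that the TAP transporter brings in. In chickens most of these genes sit close together in the compact B locus: the RefSeq table of GRCg7b lists BLB1, TAPBP, BLB2, BRD2, DMA, DMB1, DMB2, BF1, TAP1, TAP2 and BF2 in that order on the same chromosome, with B2M and CD74 on other chromosomes. DMB2 and BLB2 have been described mainly in blood-derived cells of chickens, and BLB1 and DMB1 mainly in the intestinal epithelium. Because class II β genes and DM β genes are close copies of each other, reads of BLB2 or DMB1 could be assigned to BLB1 or DMB2. How such reads were counted is not given in the sources used here. Whether alleles of all breeds were counted equally was not tested for BLB1, DMB2 or any other gene.

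The steps between low RPKM values placed each library at 8622835 (Chahua 1) to 11078776 (Linzhi Tibetan 2) read pairs. TNNT2, the cardiac troponin T gene, lay between 5502 and 8848 RPKM in all 8 libraries. The libraries differed in several respects that cross the breeds unevenly. ATP5A1W, which lies on the W chromosome of females, was high in Lhasa White 2, both Chahua libraries and White Leghorn 1, and MYH7, an atrial myosin in chickens, was high in Lhasa White 2 and Chahua 2. The genes below are therefore also given within these divisions where a result touches them.

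In these hearts the genes within each pathway had very unequal levels. B2M had the highest mean at 104 RPKM, above 94.7% of the genes tested, followed by CD74 at 46.5 RPKM, above 87.9%, and BLB1 at 16.4 RPKM, above 66.1%. The other 4 genes lay under the median gene, which stood at 9.72 RPKM. TAP2 had a mean of 3.33 RPKM, DMA 2.81, DMB2 1.75 and TAP1 1.40, the last above only 7.8% of the genes tested. All of these are levels per length of gene. The RPKM steps fitted a length of 10912 bases for TAP1 and 4212 bases for TAP2, neither of them unique. The low rank of TAP1 is thus not a rank of read numbers.

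**Figure D1:**
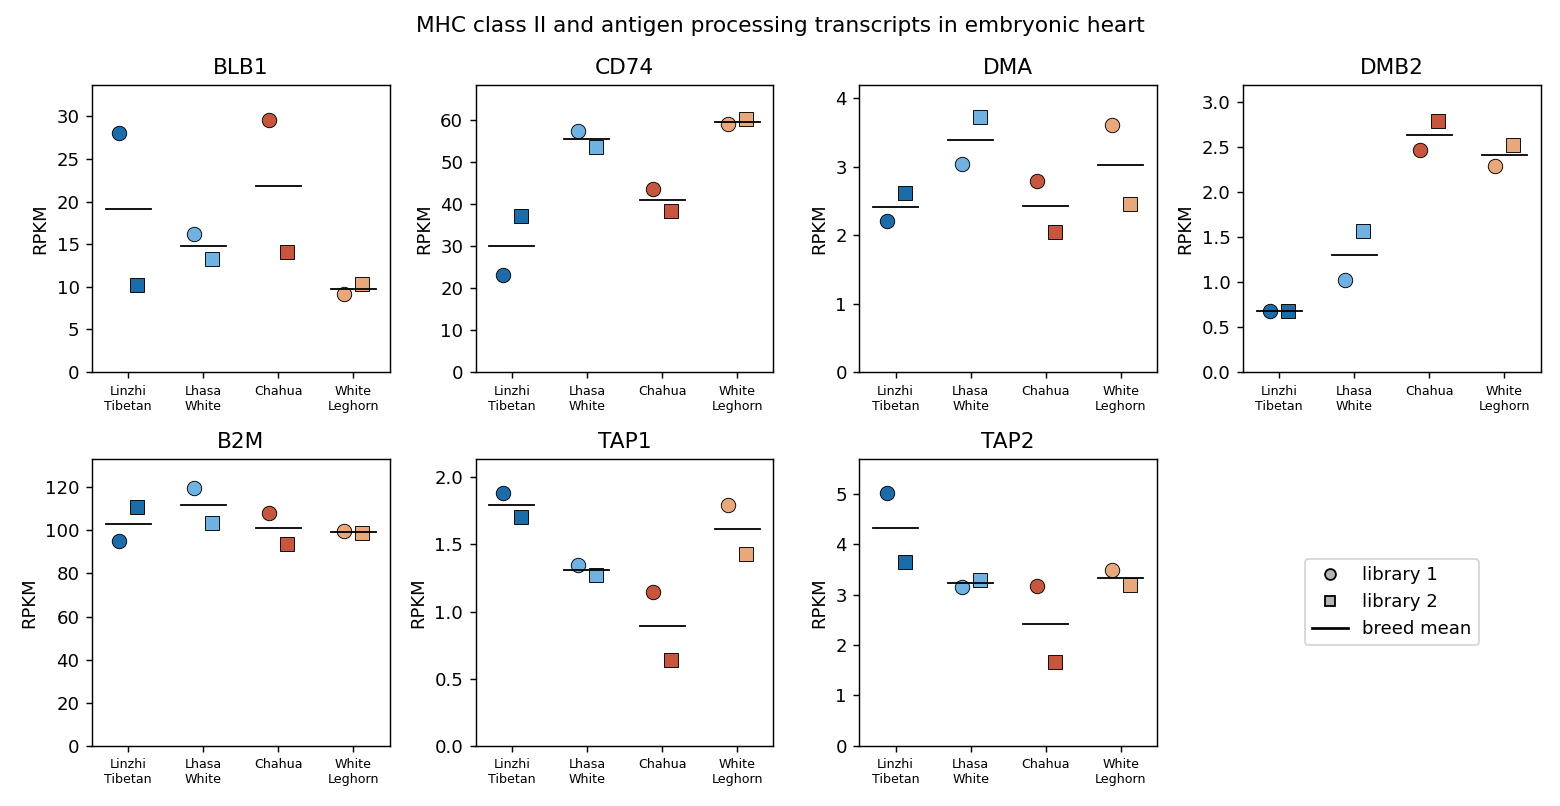
RPKM of the 7 genes with a row in each library, by breed, with circles for library 1, squares for library 2 and a line at the mean of the breed. BLB1 is far apart between the Linzhi Tibetan and between the Chahua libraries, CD74 runs from 23.0 to 60.3 RPKM, DMB2 reaches 1.57 at most in highland libraries and is at least 2.30 in lowland libraries, and B2M stays between 93.6 and 120 RPKM.

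BLB1, the class II β chain gene with a row, differed more within breeds than between highland and lowland breeds. In Linzhi Tibetan it measured 28.1 and 10.2 RPKM, in Lhasa White 16.1 and 13.3, in Chahua 29.6 and 14.1, while White Leghorn had 9.19 and 10.4. The first library of Linzhi Tibetan and the first of Chahua stood high, and the other 6 libraries lay between 9.19 and 16.1 RPKM. The highland mean of 16.9 ± 7.80 RPKM and the lowland mean of 15.8 ± 9.42 (SD, n = 4 each) overlapped. These values were among those that singled BLB1 out, so they are a description and carry no test.

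Between the libraries of a breed BLB1 differed 2.74-fold in Linzhi Tibetan and 2.09-fold in Chahua, but 1.21-fold in Lhasa White and 1.13-fold in White Leghorn. On the log2(RPKM + 1) scale its gap was 1.37 in Linzhi Tibetan, where the median gene had a gap of 0.20 and 3.42% of genes had one of at least 1. In Chahua the gap was 1.02, against a median of 0.32, and 7.90% of genes had one of at least 1. In Lhasa White and White Leghorn BLB1 had gaps of 0.26 and 0.16 against medians of 0.21 and 0.11, with 6.30% and 1.29% of genes apart by at least 1. No other member had a gap of 1 in any breed. The nearest on this scale were CD74 in Linzhi Tibetan at 0.66 and TAP2 in Chahua at 0.65. The pseudocount of 1 shrinks the gaps of genes with low RPKM. Without it TAP2 differed 1.91-fold and TAP1 1.79-fold in Chahua, CD74 1.61-fold in Linzhi Tibetan and DMB2 1.53-fold in Lhasa White.

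**Figure D2:**
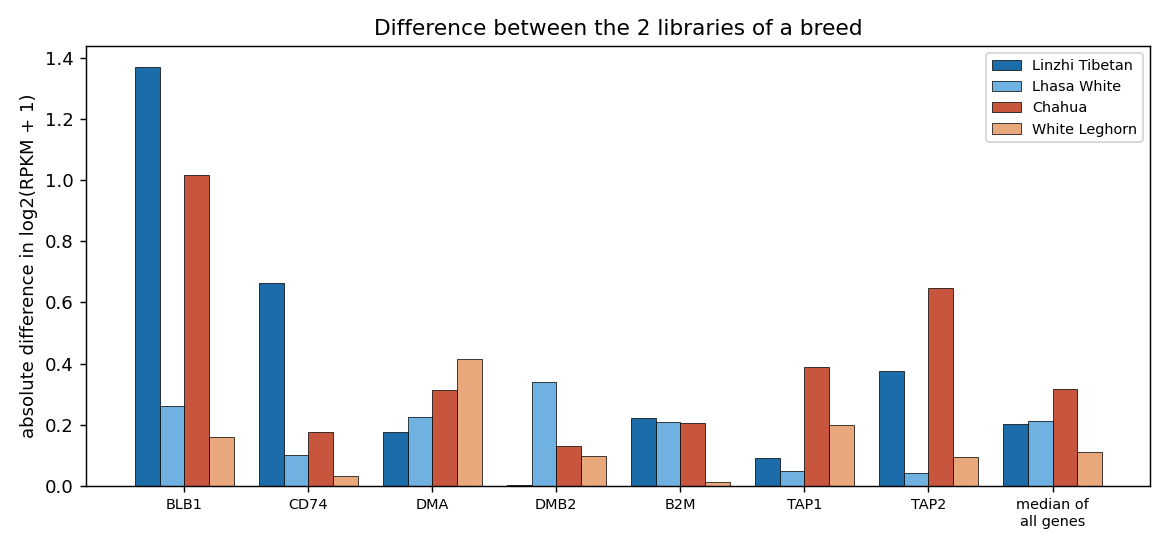
Absolute difference in log2(RPKM + 1) between the 2 libraries of each breed for the 7 genes, with the median over all genes tested at the right. BLB1 reaches 1.37 in Linzhi Tibetan and 1.02 in Chahua, whereas DMB2 stays at or below 0.34 in all 4 breeds. The pseudocount of 1 shrinks the differences of genes with low RPKM, DMB2 among them.

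The order of the breeds by mean BLB1 level was White Leghorn, Lhasa White, Linzhi Tibetan and Chahua. White Leghorn lay below Lhasa White without overlap, while neighbours further up the order overlapped. Of the libraries with high BLB1, Linzhi Tibetan 1 held almost no W-linked transcript and Chahua 1 held much of it. Neither was a library with atrial myosin, and the part of these divisions in the BLB1 values was not tested. The log2 difference between Linzhi Tibetan and Lhasa White was 0.21 with all libraries, -0.48 without Linzhi Tibetan 1 and 0.89 without Linzhi Tibetan 2, so its direction depended on which library was used.

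CD74, the invariant chain that escorts class II molecules, was lowest in Linzhi Tibetan. In Linzhi Tibetan it measured 23.0 and 37.0 RPKM, in Lhasa White 57.5 and 53.6, in Chahua 43.5 and 38.4, while White Leghorn had 59.0 and 60.3. Ordered by mean the breeds ran Linzhi Tibetan, Chahua, Lhasa White and White Leghorn, and no neighbouring breeds overlapped. The share of all genes with 4 breeds apart in this way was not counted, and nothing is read from it. The order of breeds crosses the highland and lowland division: the highland mean was 42.8 ± 15.9 RPKM and the lowland mean 50.3 ± 11.0 (SD, n = 4 each), with overlapping libraries. In bulk heart RNA, fewer cells that make a transcript and less of it per cell cannot be told apart.

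Between the highland breeds CD74 had a log2 difference of -0.90 (Linzhi Tibetan minus Lhasa White, 95% interval -1.40 to -0.40), with an unadjusted p of 0.00346 and an adjusted p of 0.49 in limma's moderated test over all 11556 genes. The difference was -0.57 without Linzhi Tibetan 1 and -1.23 without Linzhi Tibetan 2. Lhasa White 1, the Lhasa White library with little W-linked transcript and little atrial myosin, had 57.5 RPKM against 23.0 and 37.0 in Linzhi Tibetan. Both Linzhi Tibetan libraries were of the same kind in these respects. The red cell sum was 21760 RPKM in Lhasa White 1 against 4966 and 18868 in Linzhi Tibetan. Between the lowland breeds the log2 difference was -0.53 (Chahua minus White Leghorn, 95% interval -1.03 to -0.04), with an unadjusted p of 0.0385 and an adjusted p of 0.597 in limma. Neither difference passed the adjusted threshold of 0.05.

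BLB1 and CD74 did not move together. The ratio of CD74 to BLB1, formed from RPKM values, was 0.821 in Linzhi Tibetan 1 and 1.47 in Chahua 1, the libraries with high BLB1. It was 2.72 in Chahua 2, between 3.56 and 4.02 in Linzhi Tibetan 2 and Lhasa White, and 6.42 and 5.81 in White Leghorn. Over the 8 libraries, which also differ in depth and makeup, Pearson's r between these genes on the log2 scale was -0.585.

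DMB2, a β chain of the peptide editor DM, was lower in every highland than in every lowland library. In Linzhi Tibetan it measured 0.678 and 0.674 RPKM, in Lhasa White 1.03 and 1.57, in Chahua 2.47 and 2.80, while White Leghorn had 2.30 and 2.52. The lowest lowland library stood 1.46-fold above the highest highland library. The highland mean was 0.987 ± 0.421 RPKM and the lowland mean 2.52 ± 0.208 (SD, n = 4 each), a ratio of 2.55. This contrast was used to choose the gene, so it carries no test. Non-overlap in this direction was found for 0.597% of the genes tested, and in the opposite direction for 0.935%. It held for 1 of the 7 genes here (DMB2) in this direction and for 0 in the other, and nothing is read from that count.

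The level of DMB2 rested on few reads. At the smallest gene length that fitted, the RPKM steps gave it 12 and 13 read pairs for Linzhi Tibetan and 18 and 26 for Lhasa White. They gave 37 and 48 for Chahua and 40 and 43 for White Leghorn. Exact Poisson 95% intervals, which cover counting error only, ran from 0.351 to 1.19 RPKM in Linzhi Tibetan 1 and from 1.03 to 2.30 in Lhasa White 2. They ran from 1.64 to 3.13 RPKM in White Leghorn 1, the lowest lowland library. The intervals of both Linzhi Tibetan libraries and Lhasa White 1 thus ended below that of White Leghorn 1, while that of Lhasa White 2 overlapped it. They leave out the variation between embryos, and the contrast was used to choose the gene. Their separation or overlap is therefore no test of highland against lowland breeds.

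The size of the log2 difference of DMB2 between highland and lowland breeds depended on the pseudocount. It was -0.85 with the pseudocount of 1, -1.06 with 0.5, -1.34 with 0.1 and -1.42 in voom, which models the recovered read pairs. Among libraries with W-linked transcripts the 1 highland library had 1.57 RPKM and the 3 lowland libraries 2.30 to 2.80. Among the others, 3 highland libraries had 0.674 to 1.03 RPKM and the 1 lowland library 2.52. Without the libraries that held atrial myosin, highland values were 0.674 to 1.03 RPKM and lowland values 2.30 to 2.52. Since every highland library lay below every lowland library, any such division must show the same order. These values are therefore a description, and the part of either division in the DMB2 difference was not tested.

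**Figure D3:**
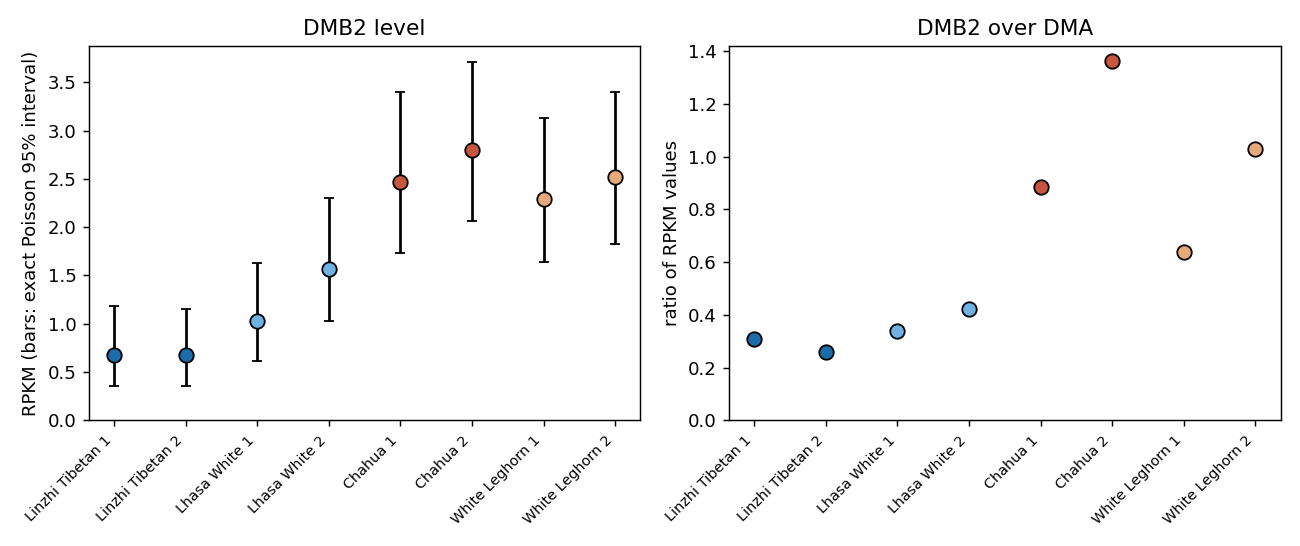
Left, RPKM of DMB2 in each library with exact Poisson 95% intervals, which cover counting error only. Right, the ratio of DMB2 to DMA in the same libraries, between 0.258 and 0.421 in the 4 highland and between 0.637 and 1.36 in the 4 lowland libraries.

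Within the highland breeds both Linzhi Tibetan libraries had less DMB2 than both Lhasa White libraries, with a log2 difference of -0.45 (95% interval -0.97 to 0.08, limma adjusted p = 0.654). Within the lowland breeds Chahua and White Leghorn overlapped, with a log2 difference of 0.09 (95% interval -0.43 to 0.61, limma adjusted p = 0.903). Neither passed. The highland difference was -0.82 with a pseudocount of 0.1, -0.88 in voom and -0.28 without Lhasa White 2.

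DMA, the α chain that pairs with the DM β chain, did not follow DMB2. In Linzhi Tibetan it measured 2.20 and 2.61 RPKM, in Lhasa White 3.04 and 3.73, in Chahua 2.79 and 2.05, while White Leghorn had 3.60 and 2.46. The highland mean was 2.90 ± 0.652 RPKM and the lowland mean 2.72 ± 0.659 (SD, n = 4 each), and the libraries overlapped. Neighbouring breeds in the order of DMA levels all overlapped. DMA rested on 37 to 66 read pairs per library at its smallest fitted length. The DMB2 to DMA ratio ran from 0.258 to 0.421 in highland and from 0.637 to 1.36 in lowland libraries. This ratio holds the DMB2 values and is no separate support for them. The log2 difference of DMA was -0.36 between Linzhi Tibetan and Lhasa White (95% interval -0.92 to 0.19) and -0.23 between Chahua and White Leghorn (95% interval -0.79 to 0.32), with limma adjusted p of 0.701 and 0.764. The lowland difference was -0.02 without White Leghorn 1 and -0.44 without White Leghorn 2, and the highland difference was -0.13 with the W-linked transcript as a covariate.

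B2M, the light chain of class I molecules, was the steadiest of the 7 genes. In Linzhi Tibetan it measured 95.2 and 111 RPKM, in Lhasa White 119.9 and 104, in Chahua 108 and 93.6, while White Leghorn had 99.9 and 99.0. The highest library stood 1.28-fold above the lowest, with a coefficient of variation of 8.52% over the 8 libraries, and neighbouring breeds in the order of levels overlapped, while both Lhasa White libraries lay above both White Leghorn libraries. Its log2 difference was -0.11 between Linzhi Tibetan and Lhasa White (95% interval -0.45 to 0.22, limma adjusted p = 0.827). It was 0.02 between Chahua and White Leghorn (95% interval -0.32 to 0.35, limma adjusted p = 0.976) and -0.09 without Chahua 1, so its direction there was not fixed.

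The genes of the peptide transporter, TAP1 and TAP2, varied together. In Linzhi Tibetan TAP1 measured 1.88 and 1.70 RPKM, in Lhasa White 1.35 and 1.27, in Chahua 1.15 and 0.641, while White Leghorn had 1.79 and 1.43. In Linzhi Tibetan TAP2 measured 5.02 and 3.64 RPKM, in Lhasa White 3.16 and 3.29, in Chahua 3.17 and 1.66, while White Leghorn had 3.49 and 3.20. Chahua 2 was the lowest library for both and Linzhi Tibetan 1 the highest. Pearson's r between them on the log2 scale was 0.921 over the 8 libraries, the highest among the 21 pairs of the 7 genes. The ratio of TAP2 to TAP1, in levels per length of gene, stayed between 1.94 and 2.76. These neighbouring genes share library, depth and makeup, so the correlation is a description.

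Both transporter genes overlapped between highland and lowland libraries. TAP1 had means of 1.55 ± 0.291 and 1.25 ± 0.486 RPKM, and TAP2 of 3.78 ± 0.851 and 2.88 ± 0.824 (highland and lowland, SD, n = 4 each). Between Linzhi Tibetan and Lhasa White the log2 difference was 0.27 for TAP1 (95% interval -0.28 to 0.83) and 0.32 for TAP2 (95% interval -0.29 to 0.94), with limma adjusted p of 0.761 and 0.747. Between Chahua and White Leghorn it was -0.47 for TAP1 (95% interval -1.03 to 0.08) and -0.38 for TAP2 (95% interval -0.998 to 0.23), with limma adjusted p of 0.654 and 0.699. None of the 4 differences passed. Without Chahua 2 the lowland differences were -0.28 for TAP1 and -0.06 for TAP2, and without Chahua 1 that of TAP2 was -0.71. That of TAP1 was -0.82 with a pseudocount of 0.1 and -0.91 in voom, where its highland difference was 0.45. The highland difference of TAP2 was 0.14 without Linzhi Tibetan 1 and 0.51 without Linzhi Tibetan 2.

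**Figure D4:**
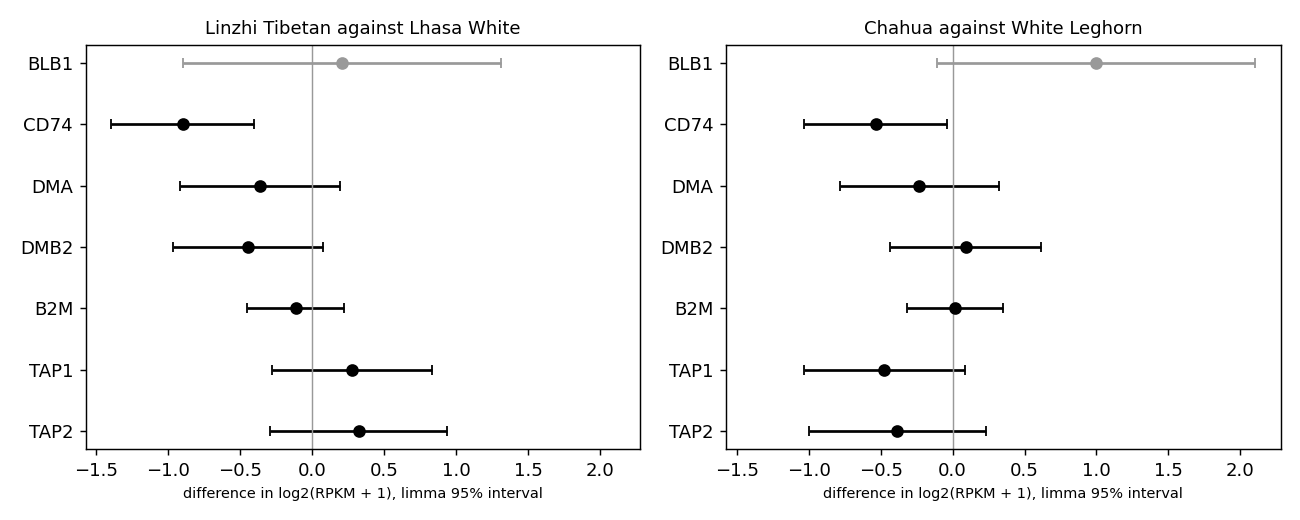
Difference in log2(RPKM + 1) between Linzhi Tibetan and Lhasa White (left) and between Chahua and White Leghorn (right) with limma's 95% intervals, for BLB1 (grey, not tested) and the 6 tested genes (black). The interval of CD74 lies below 0 in both panels, at -0.90 and -0.53, and those of the other tested genes include 0.

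Across the tested pairs of breeds, no member passed at an adjusted p of 0.05, and neither did any of the 11556 genes (0.00% in each pair). At an unadjusted p under 0.05 limma gave 902 genes (7.81%) between Linzhi Tibetan and Lhasa White and 910 (7.87%) between Chahua and White Leghorn, and CD74 was the only tested member among them in either pair. Both Linzhi Tibetan libraries lay above both Lhasa White libraries for TAP1 and TAP2, as did 17.0% of all genes, and below them for DMA, DMB2 and CD74, as did 24.7%. Both Chahua libraries lay above both White Leghorn libraries for BLB1, as did 17.1% of all genes, and below them for CD74, TAP1 and TAP2, as did 26.0%. The median log2 difference of the 7 genes was -0.11 in the highland pair and -0.23 in the lowland pair, against -0.05 and -0.01 over all genes tested.

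Other genes of both pathways showed no call in either pair, as was so for all 11556 genes tested. The 0 calls of this list and of those below therefore say nothing particular about them. Counts of higher and lower genes stand beside all-gene median log2 differences of -0.05 in the highland pair and -0.01 in the lowland pair. Of 30 partner genes of class I and II molecules, 17 had a row and 14 were tested, with 8 higher and 6 lower in Linzhi Tibetan than in Lhasa White and 3 higher and 11 lower in Chahua than in White Leghorn. The most abundant were the chaperones CALR (417 to 679 RPKM) and PDIA3 (117 to 209 RPKM), and the proteasome subunits PSMB7 (245 to 337 RPKM) and PSMB1 (92.0 to 115.0 RPKM). The class I heavy chain BF2 and the loading chaperone TAPBP had rows only under the RefSeq synonyms BFIV21 and TPN, and their values are given after having been seen. In Linzhi Tibetan BFIV21 measured 17.5 and 44.6 RPKM, in Lhasa White 19.7 and 18.9, in Chahua 22.5 and 17.0, while White Leghorn had 56.2 and 52.7. The BFIV21 row thus stood high in Linzhi Tibetan 2 and both White Leghorn libraries. B2M had 111 RPKM in Linzhi Tibetan 2, among its higher values, but 99.9 and 99.0 in White Leghorn. Whether alleles of all breeds were counted equally in the BFIV21 row was not tested either. The log2 difference of BFIV21 between Chahua and White Leghorn was -1.43 (limma adjusted p = 0.48). TPN stayed between 15.7 and 22.8 RPKM.

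Of 21 genes of endosomal processing, 14 had a row and were tested. Of these, 2 were higher and 12 lower in Linzhi Tibetan than in Lhasa White (median log2 difference -0.32), and 5 were higher and 9 lower in Chahua than in White Leghorn (median -0.09), with 0 calls in each. CTSD, a lysosomal aspartic protease, with 70.2 and 77.0 RPKM for Linzhi Tibetan, had 106 and 104 for Lhasa White (log2 difference -0.51, limma adjusted p = 0.558). CTSB, a cysteine protease, lay between 120 and 183 RPKM. AP2M1, a clathrin adaptor subunit, lay between 168 and 228 RPKM, and RAB7A, a late endosomal GTPase, between 86.9 and 113.

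Of 22 genes of MHC transcription and interferon γ signalling, 18 were tested, with 7 higher and 11 lower in the highland pair and 8 higher and 10 lower in the lowland pair, and 0 calls in each. NFYC and NFYB, subunits of the NF-Y factor that binds class II promoters, lay at 123 to 149.9 RPKM and 28.8 to 36.8 RPKM. JAK1, a kinase of cytokine receptors, lay at 49.2 to 63.5 RPKM and the repressor BCL6 at 28.9 to 54.0. CIITA, the class II transactivator, is given after its values were seen: it was between 0.046 and 0.694 RPKM in all 8 libraries and did not reach the filter. IFNG, the interferon γ gene, was listed at 0 in 7 libraries and at 0.0377 RPKM in White Leghorn 1.

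Of 26 interferon-induced genes, 12 were tested, with 5 higher and 7 lower in the highland pair and 7 higher and 5 lower in the lowland pair, again with 0 calls. GBP, an interferon-induced guanylate-binding protein, was the 1 gene (0.00865%) that passed between highland and lowland breeds. The count fell to 0 in voom, without the filter on low values, with the replicate block, with the W-linked covariate, without both atrial libraries, and without any of Linzhi Tibetan 1, Lhasa White 2, either Chahua or either White Leghorn library. In Linzhi Tibetan it measured 2.65 and 4.43 RPKM, in Lhasa White 0.901 and 0.895, in Chahua 18.8 and 15.3, while White Leghorn had 10.6 and 9.17. Its order of breeds within each group differed from that of DMB2 in the highland pair, where Lhasa White was the lower breed for GBP and the higher for DMB2. LY6E lay between 92.8 and 347 RPKM, IFI35 between 28.9 and 52.3, and STAT2 between 5.11 and 7.84.

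Most markers of cells that carry class II molecules were low in these hearts, with ZBTB46 as an exception. Of 30 genes of macrophages and dendritic cells, 22 had a row, 12 were tested and 9 stayed below 1 RPKM everywhere. The 22 genes summed to 41.8 and 42.3 RPKM for Linzhi Tibetan, 54.6 and 74.3 for Lhasa White, 47.3 and 53.7 for Chahua and 54.2 and 53.5 for White Leghorn. All 12 tested genes had a negative log2 difference between Linzhi Tibetan and Lhasa White, with a median of -0.56, and 0 of them passed. CSF1R, the receptor of macrophage colony-stimulating factor, had 2.69 and 2.36 RPKM for Linzhi Tibetan against 5.02 and 9.18 for Lhasa White. LY86 and LAPTM5 lay at 3.48 and 4.85, and at 4.26 and 3.75, in Linzhi Tibetan, against 6.12 and 13.9, and 5.39 and 9.17, in Lhasa White. ZBTB46 lay between 15.9 and 22.9 RPKM in all libraries, above the median gene at 9.72 RPKM, and was the largest part of the sums. Whether ZBTB46 marks these cells in the heart was not tested, so the sums are no measure of their number. It supplied 18.3 of the 41.8 RPKM in Linzhi Tibetan 1 and 19.4 of the 74.3 RPKM in Lhasa White 2. In the highland pair the list and CD74 were both lower in Linzhi Tibetan. The list was highest in Lhasa White 2, a library with atrial myosin. From library 1 to 2 of Lhasa White the list rose from 54.6 to 74.3 RPKM and CD74 went from 57.5 to 53.6. In Chahua the list rose from 47.3 to 53.7 RPKM and CD74 went from 43.5 to 38.4. In Linzhi Tibetan CD74 went from 23.0 to 37.0 RPKM beside list sums of 41.8 and 42.3. White Leghorn had 59.0 and 60.3 RPKM of CD74 beside 54.2 and 53.5. The part of the list in the CD74 values was not tested. In the lowland pair 6 of the 12 genes were higher and 6 lower, with a median of -0.03, beside the CD74 difference of -0.53.

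Markers of fibroblasts and epicardium, cardiomyocytes, red cells, smooth muscle and endothelium are given for both pairs of breeds. Between Linzhi Tibetan and Lhasa White, 11 of 12 fibroblast and epicardial genes were lower (median log2 difference -0.63), with sums of 1418 and 1138 RPKM in Linzhi Tibetan against 1621 and 3543 in Lhasa White, the highest being Lhasa White 2, a library with atrial myosin. Of 12 cardiomyocyte genes, 9 were higher (median 0.22), and of 8 red cell genes, 6 were lower (median -0.43). Of 7 smooth muscle genes, 6 were lower (median -0.34), and of 14 endothelial genes, 8 were higher (median 0.10). Between Chahua and White Leghorn, 7 of 8 red cell genes were lower (median -0.90), as were 10 of 14 endothelial genes (median -0.08). In the same pair 8 of 12 fibroblast and epicardial genes were higher (median 0.22), as were 4 of 7 smooth muscle genes (median 0.05). Of 12 cardiomyocyte genes, 6 were higher and 6 lower there (median 0.004). None of these genes passed in limma, and the part of these lists in the CD74 values was not tested.

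**Figure D5:**
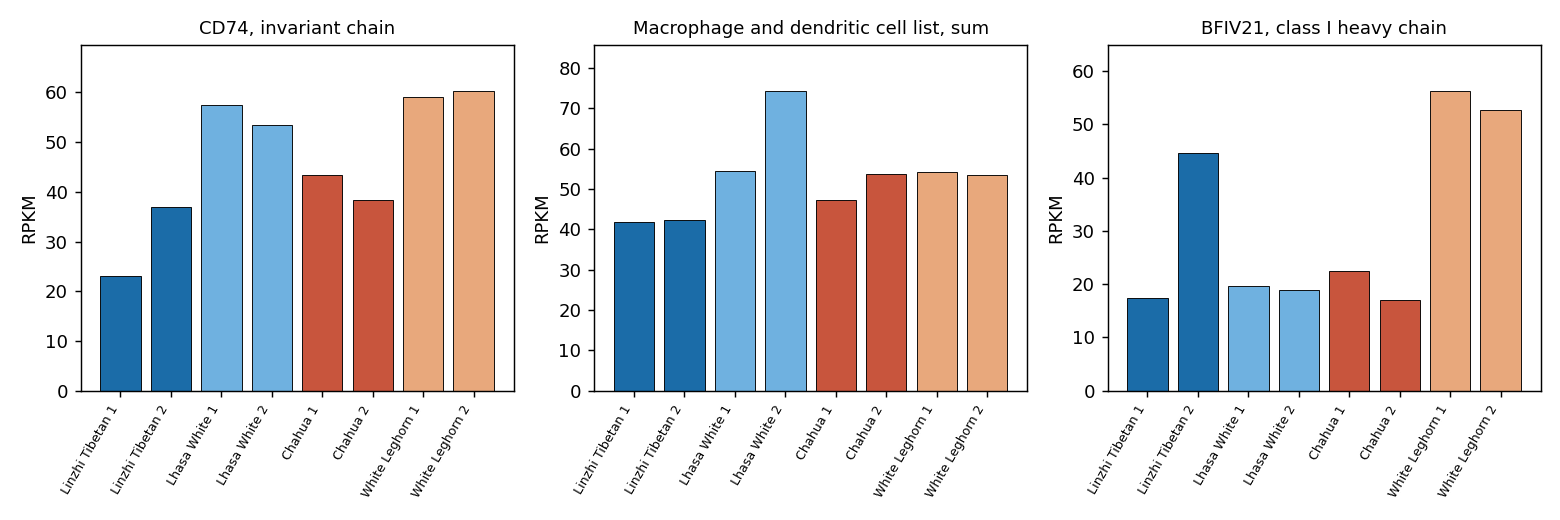
RPKM per library of CD74 (left), of the sum of 22 macrophage and dendritic cell genes (middle) and of BFIV21, the row of the class I heavy chain BF2 (right), in bars that start at 0. CD74 and the summed list are lowest in Linzhi Tibetan, the list is highest in Lhasa White 2 at 74.3 RPKM, and BFIV21 is high in Linzhi Tibetan 2 and White Leghorn. ZBTB46 is the largest part of the sums.

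Lymphocyte markers were scarcer. Of 14 B cell genes, 12 had a row and 10 of them stayed below 1 RPKM everywhere, and the 2 tested, EBF1 (5.87 to 10.7 RPKM) and BTK (1.77 to 2.26 RPKM), are not confined to B cells. CD79B, a chain of the B cell receptor, lay between 0.063 and 0.702 RPKM and the adaptor BLNK between 0.204 and 0.883. The summed B cell list ran from 9.69 to 13.5 RPKM in highland and from 9.36 to 11.6 in lowland libraries. Of 15 T and NK cell genes, 14 had a row and 8 stayed below 1 RPKM everywhere. CD4 had 0.075 and 0.207 RPKM for Linzhi Tibetan against 1.69 and 2.80 for Lhasa White (log2 difference -1.49, limma adjusted p = 0.477), CD247 at 1.25 to 4.21 RPKM, CD3D at 0.450 to 1.502 and CD2 at 0.090 to 2.39. The summed T and NK list ran from 7.68 to 9.21 RPKM in highland and from 4.28 to 8.58 in lowland libraries. The part of the lymphocyte lists in the DMB2 values was not tested. PTPRC, the general leukocyte marker CD45, named after its values were seen, lay between 0.502 and 1.07 RPKM.

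The genes whose pattern over the 8 libraries was most like that of each class II gene differed between them. For DMB2 the highest Pearson correlations on the log2 scale belonged to SNORD95 (r = 0.953), EXOSC8 (0.919), COPG2 (0.916) and CCDC90B (0.909), the 4 genes over 0.9. SNORD95 was listed at 0 in 3 highland libraries and did not exceed 1.44 RPKM. It reached 1 RPKM only in Chahua 2 and both White Leghorn libraries, so it passed the filter through lowland libraries alone. The DMB2 pattern holds the highland against lowland contrast that was used to choose DMB2. Likeness to that pattern is therefore no support for the contrast. COPG2 lay at 20.8 to 24.1 RPKM in highland and 25.3 to 27.4 in lowland libraries, a much smaller step than that of DMB2. For BLB1 they were ZFPM1 (0.972), RAI1 (0.951), MCL1 (0.948) and BAHCC1 (0.932), with 6 genes over 0.9, and ZFPM1 reached 40.1 RPKM in Linzhi Tibetan 1 and 44.5 in Chahua 1 against 27.4 to 33.7 elsewhere. For CD74 they were TTF2 (0.984), UBE4A (0.965), NDRG4 (0.965) and MTIF2 (0.961), with 59 genes over 0.9. No member of either pathway was among these genes. Only genes with a symbol among the 11556 that passed the filter were compared. With so many genes and 8 libraries that share depth and makeup, these correlations are descriptions.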

How the data were processed

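RNA of embryonic heart was sequenced in 8 libraries (4 breeds, 2 each). The authors deposited 1 table of RPKM values per gene and library. The submitters' processing notes name BWA as a tool; the sources used here give neither its version nor the genome build or counting rules, so no coordinates are printed. Every column matched the label of 1 library.

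RPKM steps gave whole units, read pairs for low genes, within 0.05 at a fitted gene length for 15871 of 15873 genes (99.99%). Library totals were 8622835 to 11078776 read pairs. Deep genes stepped in smaller units, as if mates had been counted singly. Counts are therefore printed for DMA and DMB2 only, where the smallest fitted length was odd and could not be halved. Multiples of that length would fit as well, so the counts and their intervals assume the smallest length. Intervals are exact Poisson at 95% and cover counting error only.

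The 11556 genes that reached an RPKM of 1 in 2 or more libraries were fitted as log2(RPKM + 1) in limma 3.58.1 under R 4.3.3, with 1 mean per breed, a variance trend and 4 residual degrees of freedom. Benjamini-Hochberg adjustment ran over all genes of a contrast, with a threshold of 0.05. Since the choice of genes used the highland against lowland contrast and the spread of BLB1 within breeds, those are described without a test. The contrasts Linzhi Tibetan against Lhasa White and Chahua against White Leghorn were tested. The fit was also run on simulated libraries with independent noise and none of the W-linked or atrial differences seen here. That run does not show how the fit behaves on these libraries. P-values set the difference between breeds against the spread between libraries of a breed, pooled over the 4 breeds and moderated. That spread may be technical. Other steps used Python 3.11.15, SciPy 1.17.1, NumPy 2.4.6, matplotlib 3.10.9 and pandas 2.3.3.

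The genes and lists were chosen with earlier results of these data known. Named genes are all members with a row, the 4 most abundant measured genes of each list (printed for the pathway, macrophage and lymphocyte lists), any that passed, and the 4 most like DMB2, BLB1 and CD74; exceptions are stated. Alternatives were other pseudocounts, filters, scalings, voom, a replicate block, and omission of libraries. Lists of thrombocyte, endothelial, fibroblast, cardiomyocyte, chamber, red cell and smooth muscle genes gave 0 calls in either tested pair.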

Additional observations from a re-analysis of the deposited data

How the results depend on the processing

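Between highland and lowland breeds the count of 1 called gene (GBP) became 0 without the filter on low values, in voom, with the replicate block, without both libraries with atrial transcripts and with the W-linked transcript as a covariate (added after seeing the data), and ran from 0 to 1 when single libraries were left out. Between Linzhi Tibetan and Lhasa White the count of 0 became 12 without the filter and 2 without the variance trend, and ran from 0 to 52 over omissions of single libraries, with 52 without Lhasa White 1. Between Chahua and White Leghorn it was 0 under every alternative run. The cause of these moves was not tested. No member passed in either tested pair under any alternative run, with adjusted p of 0.133 or more.

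Of 387 values of members under the alternatives, 378 kept their sign and 9 did not. DMB2 between Chahua and White Leghorn was -0.009 with quantile normalization (limma adjusted p = 0.991), and B2M in the same pair was -0.0862 without Chahua 1 (limma adjusted p = 0.763) and up to 0.1208 without Chahua 2. BLB1 between Linzhi Tibetan and Lhasa White was -0.48 without Linzhi Tibetan 1. Between highland and lowland breeds BLB1 turned from 0.15 to as low as -0.20 in 3 omissions (Linzhi Tibetan 1, Chahua 2, both atrial libraries), and DMA from 0.07 to as low as -0.07 in 3 (Chahua 2, White Leghorn 2, both atrial libraries). DMA between Chahua and White Leghorn ran from -0.44 to -0.02. With a minimum mean of 5 RPKM, DMA, DMB2, TAP1 and TAP2 could not be fitted.

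Deviations of same-numbered libraries correlated at -0.332 to 0.17 over the 6 pairs of breeds. These values also hold the differences in W-linked and atrial transcripts between libraries. Whether library numbers mark a pairing or a batch was not tested. The replicate block gave 0 calls in each of the 3 contrasts, so no call in the tested pairs was altered. Depth limits DMB2, DMA, TAP1, TAP2 and BLB1, which rest on few read pairs, and 2 libraries per breed limit every test.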
